A study of Mus musculus with 10 samples.

Results

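Resident Kupffer cell genes are described here as 10 genes chosen by name, Clec4f, Vsig4, Timd4, Cd5l, Marco, Folr2, C1qa, C1qb, C1qc and Adgre1, out of 55421 genes in the count table. All 10 passed the minimum of 10 counts summed over the livers and so belonged to the 22449 genes tested. Poly(A) RNA was sequenced from 10 whole livers of male mice. The H3.3 KO group held 4 mice with H3f3a fl/fl and H3f3b fl/fl alleles, which encode the replacement histone H3.3, given AAV8 Tbg-Cre. The WT Cre controls were 3 wild-type mice given the same Cre virus, and the MCS controls were 3 mice with both floxed genes given AAV8 Tbg-MCS, a virus without Cre. Virus was given at an age of 6 months, and the livers were collected 3 weeks after it. The Tbg promoter is active in hepatocytes, so Cre was directed to hepatocytes and not to Kupffer cells. Every liver, control livers included, had received AAV8, and no liver without virus was compared.

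Kupffer cells are the macrophages that live inside the sinusoids of the liver. They settle there before birth and largely renew themselves in place, where endothelial cells, stellate cells and hepatocytes supply the signals, among them CSF1, BMPs and Notch ligands, that keep the Kupffer cell programme on. The genes fall into 4 groups by role: the lectin and receptor genes used to recognise the cells (Clec4f, Vsig4, Timd4), genes of lipid, scavenger and vitamin handling (Cd5l, Marco, Folr2), the 3 chains of complement C1q, and the general macrophage gene Adgre1. When Kupffer cells die, monocytes from the blood can enter the empty niche. Such cells acquire Clec4f early and Timd4 late, which is why Timd4 is commonly used as a marker of long-resident Kupffer cells.

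The libraries held between 14998426 counts, in KO liver 1, and 26096141 counts. The genes took 0.0210% to 0.0361% of a control library and 0.0530% to 0.124% of a KO library. H3f3a fell from 62.1 ± 1.58 CPM (counts scaled to library size with TMM factors, mean ± SD, n = 6 controls) to 17.4 ± 1.66 (n = 4) and H3f3b from 160 ± 24.0 to 50.5 ± 7.40. Hira, whose floxed allele GEO's genotype field names for the floxed animals in place of H3f3a and H3f3b, was at 7.16 ± 1.14 and 6.51 ± 0.188 CPM. The liver was recognisable by its hepatocyte genes, which summed to 91342 CPM or more in every library. Among the livers, 2 stood apart in what follows. MCS liver 3 was the highest control for all 10 genes, and KO liver 1 was the lowest KO liver for all 10. KO liver 1 was also the shallowest library and lay apart from the other KO livers on the first principal component, at 22.1 against 64.8 to 66.5. Its summed level of H3f3a, H3f3b and Hira was the lowest, at 62.1 CPM against 74.4 to 82.2 in the other KO livers.

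The promoters of 5 members are shown, those of Clec4f, Vsig4, C1qb, C1qc and Marco. Clec4f and Vsig4 are Kupffer cell markers, C1qb and C1qc are neighbours, and Marco changed the most. All 5 rose in KO livers, and whether these sequences have a part in that was not tested. The RefSeq promoter table, build GRCm38.p6, matched 8 of the 10 symbols, all but C1qa and Adgre1. Each window runs from 250 bases before to 50 bases after the start and is printed on the strand of the gene. Clec4f is chr6:83656067-83656366 on the minus strand, Vsig4 chrX:96293389-96293688 on the minus strand, C1qb chr4:136886151-136886450 and C1qc chr4:136892865-136893164 on the minus strand, and Marco chr1:120504975-120505274 on the minus strand. Capitals mark matches, on either strand, to GAGGAA, the core bound by PU.1 and SPIC, factors of the macrophage lineage, and to TGCTGA, a part of the MAF recognition element.
Clec4f: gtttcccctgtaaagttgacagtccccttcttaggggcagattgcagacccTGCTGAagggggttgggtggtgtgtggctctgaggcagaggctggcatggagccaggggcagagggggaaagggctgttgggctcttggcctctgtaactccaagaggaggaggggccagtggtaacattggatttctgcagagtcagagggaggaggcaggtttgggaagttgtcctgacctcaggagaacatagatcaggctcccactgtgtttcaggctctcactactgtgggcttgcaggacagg
Vsig4: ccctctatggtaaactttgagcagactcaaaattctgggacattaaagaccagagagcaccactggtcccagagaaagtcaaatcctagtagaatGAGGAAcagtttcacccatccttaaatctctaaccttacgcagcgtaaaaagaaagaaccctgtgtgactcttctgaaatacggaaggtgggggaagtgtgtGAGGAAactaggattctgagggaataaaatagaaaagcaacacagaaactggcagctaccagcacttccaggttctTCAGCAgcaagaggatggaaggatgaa
C1qb: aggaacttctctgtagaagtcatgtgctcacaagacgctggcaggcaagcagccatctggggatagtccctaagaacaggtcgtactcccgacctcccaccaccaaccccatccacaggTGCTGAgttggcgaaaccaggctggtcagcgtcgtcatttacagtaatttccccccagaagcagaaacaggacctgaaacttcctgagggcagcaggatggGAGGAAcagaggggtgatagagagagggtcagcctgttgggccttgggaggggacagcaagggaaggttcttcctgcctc
C1qc: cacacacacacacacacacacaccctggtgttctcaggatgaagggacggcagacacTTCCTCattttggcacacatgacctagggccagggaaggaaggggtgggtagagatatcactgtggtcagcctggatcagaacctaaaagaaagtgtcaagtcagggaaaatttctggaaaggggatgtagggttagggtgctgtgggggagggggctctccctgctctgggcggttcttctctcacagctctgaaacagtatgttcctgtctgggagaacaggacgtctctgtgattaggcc
Marco: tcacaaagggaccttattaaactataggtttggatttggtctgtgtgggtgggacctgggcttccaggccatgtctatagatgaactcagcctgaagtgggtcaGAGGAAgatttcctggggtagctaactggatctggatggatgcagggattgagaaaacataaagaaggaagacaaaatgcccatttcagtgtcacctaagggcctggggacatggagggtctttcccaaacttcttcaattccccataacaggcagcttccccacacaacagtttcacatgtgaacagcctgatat
GAGGAA occurred in 5 of the 8 members with a window (Clec4f, Folr2 and Timd4 were without it) against 28.3% of all 32851 promoters of the same length. TGCTGA occurred in 6 of 8, all but Marco and C1qc, against 19.5%. The 8 members had 9 windows, since Folr2 had more than 1. A member was counted if any of its windows matched, while the percentages count single windows. AGGTCA, a nuclear receptor element, was found in Clec4f, C1qc and Timd4 (16.3% of all promoters), TGGGAA, the RBPJ core, in Clec4f and Marco (25.6%), the AP-1 element TGANTCA in 1 of the windows of Folr2 (7.81%) and the E-box CACGTG in none (7.15%). Both strands were searched, and no match overlapped another in these windows. A match describes the letters and says nothing of binding.

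The positions are those of GENCODE M21 on mm10. The 3 C1q genes stand side by side on the minus strand of chromosome 4, within 18675 bases from the end of C1qb at 136880129 to the start of C1qa at 136898803. Clec4f lies on chromosome 6 at 83644542 to 83656187, Vsig4 on chromosome X at 96247203 to 96293438, Timd4 on chromosome 11 at 46810800 to 46844332, Cd5l on chromosome 3 at 87357881 to 87371073, Marco on chromosome 1 at 120474538 to 120505024, Folr2 on chromosome 7 at 101839988 to 101857194 and Adgre1 on chromosome 17 at 57358691 to 57483527. Each is a protein-coding gene. The count table lists them as Clec4f ENSMUSG00000014542.3, Vsig4 ENSMUSG00000044206.3, Timd4 ENSMUSG00000055546.6, Cd5l ENSMUSG00000015854.7, Marco ENSMUSG00000026390.7, Folr2 ENSMUSG00000032725.10, C1qa ENSMUSG00000036887.5, C1qb ENSMUSG00000036905.8, C1qc ENSMUSG00000036896.5 and Adgre1 ENSMUSG00000004730.15. Folr2 alone overlapped other annotated genes, the antisense transcript Gm10602 and the pseudogene Gm45319, both on the opposite strand. The counting is not stated to use strand, so the reads of Folr2 cannot be told apart from theirs.

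The first question was how the resident genes stood in H3.3 KO livers against the controls. All 10 rose. The median log2 fold change against the 6 pooled controls was 1.56, with a range from 1.29 for Clec4f to 3.23 for Marco, whereas the median over all genes tested was -0.003. At an adjusted p under 0.05 by edgeR's quasi-likelihood test, 10 of 10 were higher, against 19.7% of all genes tested. The members were chosen with earlier results of these data known, so this contrast is a description only. Over all genes 4429 were higher and 3726 lower, and the split depended on scaling: with library size alone it was 5635 and 2172, and on log2(FPKM + 1) it was 4754 and 2053, with all 10 members higher in each. All 10 also passed a log2 fold change over 1, against 12.9% of all genes. In 9 of 10 every KO liver lay above every control, which held for 12.5% of all genes, and the exception was Timd4. In whole liver, more Kupffer cells, more transcripts per cell, transcripts from monocyte-derived macrophages and a smaller share of hepatocyte RNA cannot be told apart.

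**Figure D1:**
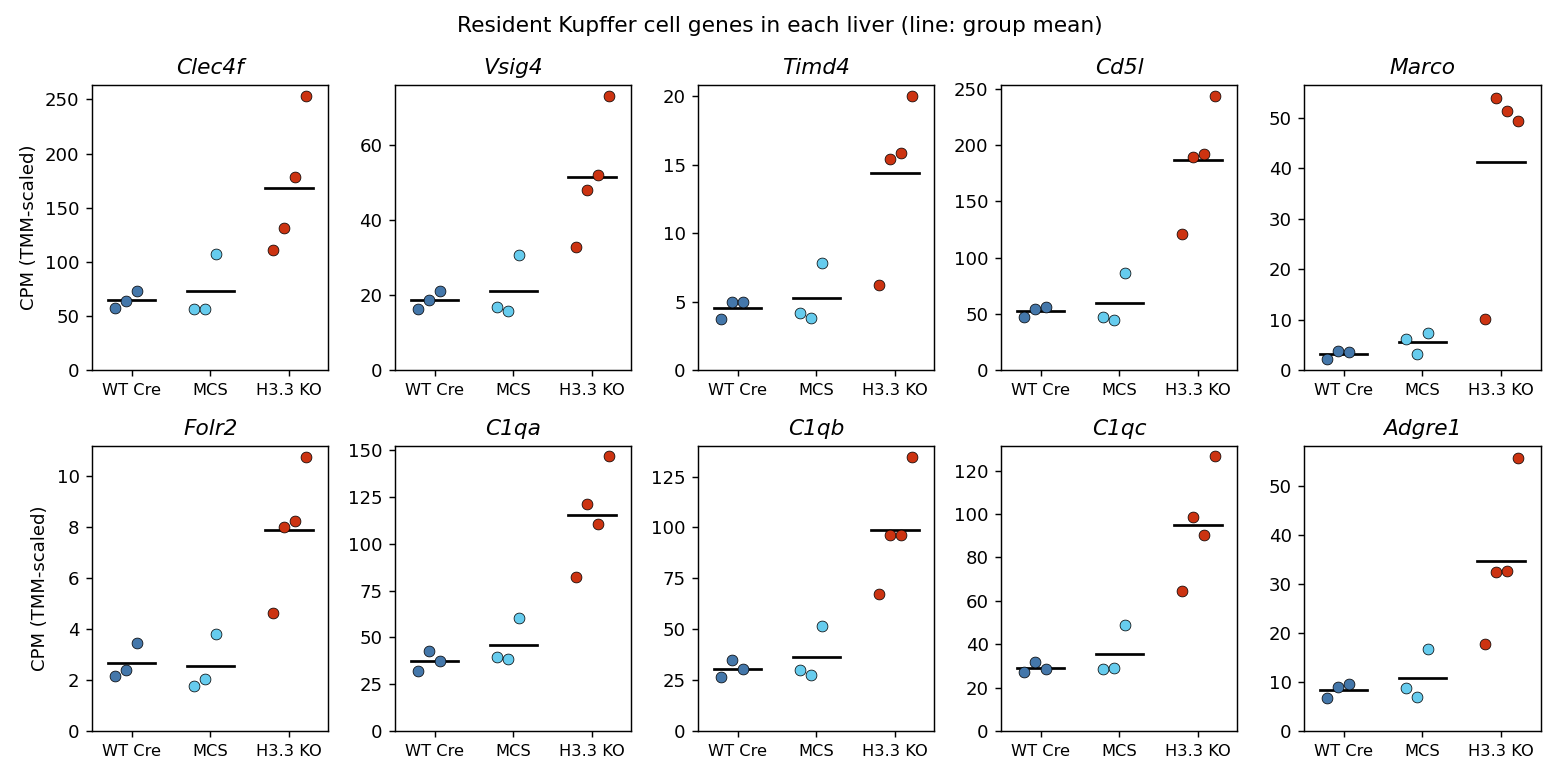
TMM-scaled CPM of each of the 10 genes (y axis, from 0) in each liver (points) of the WT Cre, MCS and H3.3 KO groups (x axis), with a line at each group mean. The KO points lie above all control points in every panel but that of Timd4, where KO liver 1 at 6.19 lies below MCS liver 3 at 7.82, and in the panel of Marco KO liver 1 lies far below the other 3 KO livers.

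Clec4f encodes a galactose-binding lectin that, in the mouse, is made almost solely by Kupffer cells. Its level was 57.1, 63.8 and 73.2 CPM in the WT Cre livers, 56.7, 56.2 and 107 in the MCS livers, and 111, 131, 178 and 253 in the KO livers. The lowest KO liver lay only just above MCS liver 3. The mean was 69.0 ± 19.8 CPM in controls and 168 ± 63.3 in KO livers, which is 1.29 ± 0.24 on the log2 scale (± standard error; adjusted p = 0.00193 by edgeR), the smallest change of the 10.

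Vsig4 encodes the complement receptor CRIg, with which Kupffer cells take C3-coated particles from the blood. It was at 16.3, 18.6 and 21.2 CPM in the WT Cre livers, 16.7, 15.8 and 30.8 in the MCS livers and 32.8, 47.9, 52.1 and 73.1 in the KO livers. The order of the KO livers was that of Clec4f, and the groups did not overlap. The log2 fold change was 1.37 ± 0.23 (edgeR adjusted p = 0.000894).

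Timd4 encodes TIM-4, a receptor for phosphatidylserine on dying cells and, in this tissue, the marker of the long-resident cells. Its values were 3.75, 4.94 and 4.96 CPM in the WT Cre livers, 4.15, 3.84 and 7.82 in the MCS livers and 6.19, 15.4, 15.8 and 20.0 in the KO livers. KO livers 2 to 4 were all above the controls, while KO liver 1 was within their range. The log2 fold change was 1.56 ± 0.29 (edgeR adjusted p = 0.00164), and without KO liver 1 it was 1.80.

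Timd4 was also set against Clec4f inside each liver. There were 6.57 to 7.75 CPM of Timd4 per 100 CPM of Clec4f in the 6 controls, and 5.58, 11.7, 8.90 and 7.89 in KO livers 1 to 4. The KO livers thus fell on both sides of the control range.

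Among the genes of lipid and scavenger handling, Cd5l encodes a secreted protein (AIM) that circulates with IgM and is under the control of the oxysterol receptor LXRalpha in macrophages. It was at 47.1, 54.2 and 56.1 CPM in the WT Cre livers, 47.5, 44.9 and 86.6 in the MCS livers and 121, 189, 193 and 244 in the KO livers. The lowest KO liver exceeded the highest control by more than the whole spread of the WT Cre livers. The log2 fold change was 1.74 ± 0.21 (edgeR adjusted p = 8.54e-05).

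Marco, a class A scavenger receptor for bacteria and particles, changed the most. Its level was 2.21, 3.77 and 3.65 CPM in the WT Cre livers, 6.23, 3.21 and 7.43 in the MCS livers and 10.2, 54.0, 51.3 and 49.4 in the KO livers. KO livers 2 to 4 were close to each other and far above every other liver, and KO liver 1 was nearer to the MCS livers than to them. The mean rose from 4.42 ± 1.98 to 41.2 ± 20.7 CPM, a log2 fold change of 3.23 ± 0.48 (edgeR adjusted p = 0.000807). Marco was the only member for which KO liver 4 was not the highest of the 10 livers.

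Folr2 encodes folate receptor beta, a receptor of tissue macrophages. With 2.17, 2.39 and 3.45 CPM in the WT Cre livers, 1.75, 2.05 and 3.80 in the MCS livers and 4.63, 7.99, 8.26 and 10.7 in the KO livers, it had the fewest counts of the 10 genes in every liver. The groups did not overlap. The log2 fold change was 1.61 ± 0.25 (edgeR adjusted p = 0.000329).

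C1q, the molecule that starts the classical complement pathway and also coats dying cells, is built from equal numbers of A, B and C chains and in the liver is made by macrophages. C1qa was at 31.8, 42.5 and 37.5 CPM in the WT Cre livers, 39.2, 38.3 and 60.4 in the MCS livers and 82.3, 121, 111 and 147 in the KO livers. C1qb was at 26.3, 35.0 and 30.2 CPM, then 30.2, 27.5 and 51.6, and in the KO livers 67.4, 96.5, 96.1 and 135. C1qc was at 27.2, 31.8 and 28.7 CPM, then 28.5, 28.8 and 48.8, and in the KO livers 64.6, 98.5, 90.3 and 126. In all 3 chain genes the groups did not overlap, and MCS liver 3 was the highest control, WT Cre liver 1 the lowest control, KO liver 4 the highest and KO liver 1 the lowest KO liver.

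The log2 fold changes of the chains were 1.47 ± 0.18 for C1qa (edgeR adjusted p = 6.85e-05), 1.56 ± 0.21 for C1qb (0.000196) and 1.56 ± 0.20 for C1qc (0.000103), each within an SE of the others. Of the summed FPKM (deposited fragment counts scaled by transcript length and library depth) of the 3 genes, C1qa made up 41.7% ± 1.25 (SD, n = 6) in controls and 40.2% ± 1.10 (n = 4) in KO livers, C1qb 30.5% ± 1.19 and 31.5% ± 0.903, and C1qc 27.8% ± 0.654 and 28.3% ± 0.386. The groups overlapped in all 3 shares.

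Adgre1 encodes the adhesion receptor known as EMR1, carried by most mouse tissue macrophages and more strongly by resident cells than by fresh monocytes. It was at 6.75, 9.02 and 9.57 CPM in the WT Cre livers, 8.83, 6.96 and 16.8 in the MCS livers and 17.7, 32.4, 32.7 and 55.8 in the KO livers. KO liver 1 was barely above MCS liver 3, and KO liver 4 stood well above the rest. The log2 fold change was 1.85 ± 0.32 (edgeR adjusted p = 0.00151), the second largest of the set.

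The controls differ in genotype and in virus, so each was also compared alone. Against the WT Cre controls, which share the Cre virus with the KO livers, 10 of 10 were higher (15.3% of all genes tested), with a median log2 fold change of 1.68. Marco led at 3.68 ± 0.62 and Adgre1 followed at 2.04 ± 0.42, while Clec4f was again last at 1.38 ± 0.32 (edgeR adjusted p = 0.0102). Against the MCS controls, which share the floxed genotype, 10 of 10 were higher (17.3% of all genes), with a median of 1.45. There Marco was at 2.88 ± 0.59, Adgre1 at 1.69 ± 0.41, Folr2 at 1.66 ± 0.33 and Clec4f, the last, at 1.20 ± 0.32 (edgeR adjusted p = 0.0167). Both comparisons use the same 4 KO livers.

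The comparison with the MCS group alone rested on few livers. Without MCS liver 1, 7 of 10 were called, since Clec4f (adjusted p = 0.0642), Timd4 (0.0597) and Adgre1 (0.0528) passed no longer. Without MCS liver 2, Clec4f (0.0641) and Timd4 (0.0594) were lost. In both cases the log2 fold change of these genes stayed at 1.04 or above.

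The kinds of control did not differ detectably from each other in these genes. Between WT Cre and MCS livers 0 of 10 were called by edgeR and 0 by DESeq2, and 0 had an unadjusted p under 0.05 with either tool. Of all genes tested, 0.927% were called in either direction. The log2 difference, WT Cre minus MCS, ran from -0.80 ± 0.62 for Marco to 0.09 ± 0.35 for Folr2. The standard errors of 0.22 to 0.62 leave room for differences of that order.

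**Figure D2:**
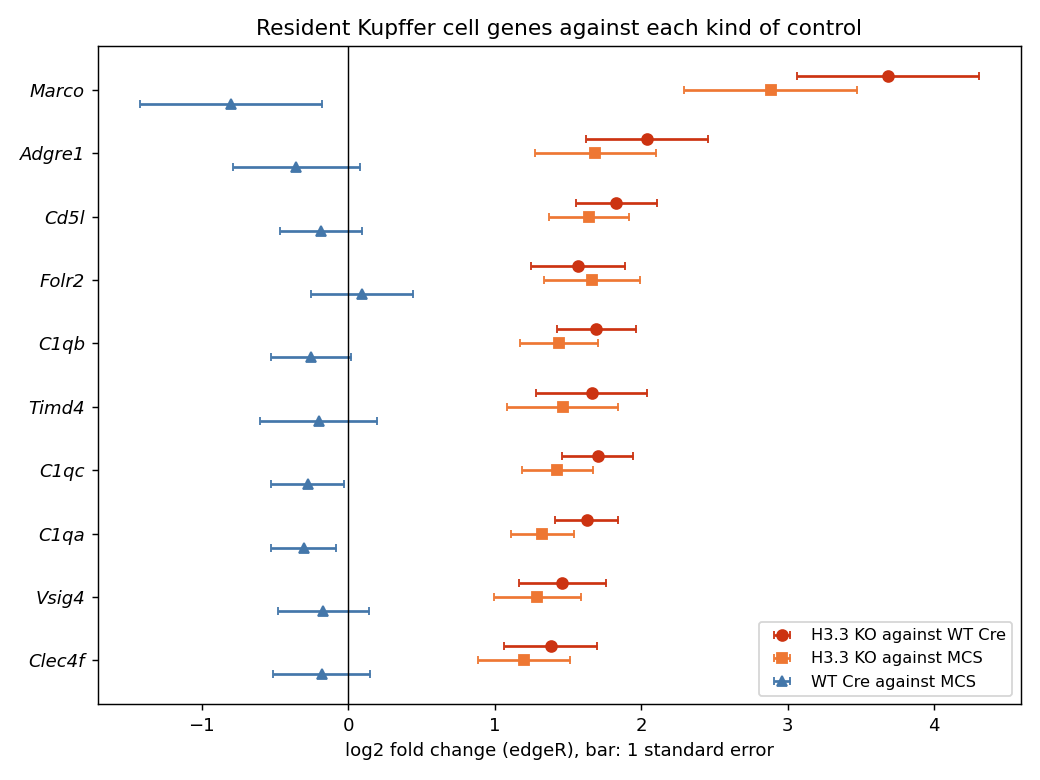
Log2 fold change by edgeR (x axis, bars of 1 standard error) of the 10 genes (y axis, ordered by their fold change against all controls) for H3.3 KO against WT Cre, H3.3 KO against MCS, and WT Cre against MCS. All 20 KO points lie above 1, from 1.20 to 3.68, and the WT Cre against MCS points lie between -0.80 and 0.09.

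Levels can be set between genes only per length. On the deposited FPKM scale, the order in controls was C1qa (36.6 ± 6.39), Clec4f (32.8 ± 5.22), C1qb (26.9 ± 6.00), C1qc (24.4 ± 4.64), Cd5l (21.4 ± 5.11), Vsig4 (10.9 ± 2.60), Folr2 (7.32 ± 1.63), Adgre1 (2.23 ± 0.746), Marco (1.67 ± 0.649) and Timd4 (1.66 ± 0.397). Each neighbour among the first 5 differed from the next by less than the larger of their SDs, as did Adgre1, Marco and Timd4. In KO livers C1qa stayed first at 117 ± 29.6. Marco, at 18.2 ± 9.35, passed Adgre1, at 9.29 ± 4.24, and Timd4 stayed last at 5.72 ± 2.38. The place of Folr2 was uncertain. Its FPKM in controls was 4.35 times its CPM per kilobase of merged exons, and this ratio was 0.726 to 1.46 for the other 9 genes. By CPM per kilobase Folr2 was last, at 1.68 in controls.

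Of 21 further genes linked with Kupffer cells, 17 rose, 0 fell and the median log2 fold change was 1.06. Over all genes tested 19.7% rose and 3726 of 22449 fell. Many of these are shared with endothelial cells, stellate cells or hepatocytes. The highest were Id1, a BMP target, at 2.04 ± 0.18, Siglec1, a sialic acid receptor, at 1.81 ± 0.29, and Cd207, which encodes langerin, at 1.77 ± 0.29, close to Cd5l and Adgre1. Spic, the factor named with the promoters above, rose from 1.10 to 3.33 CPM (log2 1.62 ± 0.26), and Id3, a factor required by Kupffer cells, by log2 1.02 ± 0.13. Nr1h3, which encodes LXRalpha and is also a hepatocyte gene, was at -0.06 ± 0.10 and did not pass the test.

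Genes that macrophages of every origin share also rose. All 15 of a pan-macrophage list passed the test, against 19.7% of all genes tested, with a median log2 fold change of 1.77. The highest were Ptprc (CD45) at 2.06 ± 0.28, the protease Ctss at 2.00 ± 0.24 and Laptm5 at 1.90 ± 0.22, and the lowest Lgmn at 1.23 ± 0.14 and the receptor Mertk at 0.62 ± 0.14. Cd68 was at 1.87 ± 0.24. Csf1r, the CSF1 receptor on which Kupffer cells depend, was at 29.2 to 50.2 CPM in controls, MCS liver 3 again the highest, and at 65.9, 112, 114 and 154 in the KO livers, a log2 fold change of 1.66 ± 0.21 (edgeR adjusted p = 0.000122).

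To see which resident genes moved more or less than the macrophage signal as a whole, each gene was divided by Csf1r in the same liver. Only Marco passed the test, with a ratio higher by 1.44 ± 0.32 on the log2 scale in KO livers (limma adjusted p = 0.000411). For the other 9 the difference ran from -0.36 ± 0.23 for Clec4f (limma adjusted p = 0.147) to 0.18 ± 0.23 for Adgre1 (0.482), with a median over all 10 of -0.06. Timd4 was at -0.16 ± 0.25 and the C1q chains at -0.15 to -0.06. Because Csf1r itself rose, 84.2% of all genes were lower in this ratio and 1.57% higher, so a gene of constant level would appear here as lower.

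**Figure D3:**
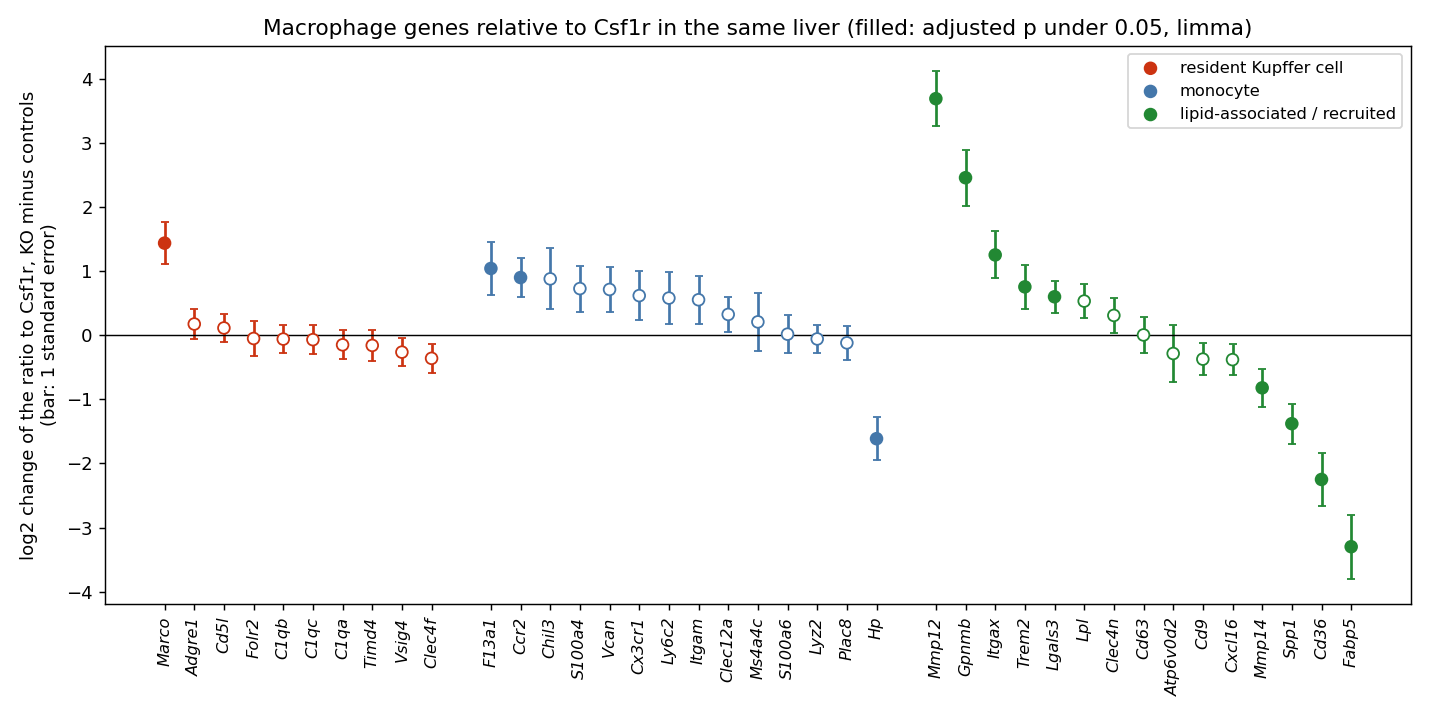
Log2 change of each gene's ratio to Csf1r, KO minus controls (y axis, bars of 1 standard error), for the resident Kupffer cell genes, 14 of the 15 monocyte genes and the genes of lipid-associated and recruited macrophages (x axis). Filled points passed an adjusted p under 0.05 by limma: among the resident genes this is Marco alone, at 1.44, and the other 9 lie between -0.36 and 0.18.

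The position of Clec4f and Timd4 in this ratio depended on the livers used. When KO liver 1 and MCS liver 3 were both left out, a choice made after seeing the data, the ratio of Clec4f was lower by 0.39 on the log2 scale (limma adjusted p = 0.0381), that of Timd4 was at 0.0075, and that of Marco was at 1.85. Leaving out 1 liver at a time changed no call among the 10 ratios.

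Monocyte-derived cells were the comparison of interest, since they can take the place of resident cells. Of 15 monocyte genes 14 rose (19.7% of all genes tested), with a median log2 fold change of 2.26 against 1.56 for the resident genes. The order of these medians depended on the scale: on log2(FPKM + 1), which understates the change of low genes, the monocyte median was 1.10 and the resident median 1.62. At a mean of at least 1 CPM, the highest were Ly6c2, a marker of inflammatory monocytes, at 2.73 ± 0.43, Ccr2, the receptor that brings them out of the bone marrow, at 2.66 ± 0.26, and the integrin Itgam at 2.63 ± 0.47. The lowest was Hp, chiefly a hepatocyte product, at -0.01 ± 0.24. Their levels were low. Ccr2 was at 0.936 to 1.87 CPM in controls and at 4.37, 12.4, 7.67 and 9.52 in the KO livers, and Ly6c2 at 0.335 to 0.635 CPM in controls and at 0.521, 4.63, 4.13 and 3.14. KO liver 1 was inside the control range for Ly6c2 and for Itgam (0.456 CPM against 0.125 to 0.671), as it was for Timd4.

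In the ratio to Csf1r, 2 of the 15 monocyte genes were higher, F13a1 at 1.04 ± 0.41 and Ccr2 at 0.90 ± 0.31 (limma adjusted p = 0.0102), and Hp was lower. Over all genes 1.57% were higher in this ratio and 84.2% lower. Ly6c2 did not pass (0.58 ± 0.41, limma adjusted p = 0.189). The ratio uses a prior count of 2, which understates the change of genes with few counts. Ly6c2 had 6 to 16 counts in a control liver. Against Clec4f in the same liver, there were 1.30 to 2.92 CPM of Ccr2 per 100 CPM of Clec4f in controls. In KO livers 1 to 4 there were 3.94, 9.44, 4.31 and 3.76, so the groups did not overlap. Clec4f rose least of the members (log2 1.29), so a gene that rose further gains in this ratio. Ly6c2 per 100 Clec4f was at 0.313 to 0.868 in controls and at 0.470, 3.52, 2.32 and 1.24 in KO livers 1 to 4, where KO liver 1 overlapped. Marco per 100 Clec4f was at 3.87 to 10.98 in controls and at 9.22, 41.1, 28.8 and 19.5 in the KO livers, where KO liver 1 overlapped. Summed over all members, the monocyte genes without Hp gave 17.6 to 21.9 CPM per 100 CPM of the resident genes in controls and 18.9 to 23.7 in KO livers, which overlapped. Most of this sum was the lysozyme gene Lyz2, at a mean of 38.6 of 53.2 CPM in controls and 113 of 172 CPM in KO livers, with a log2 fold change of 1.55 ± 0.25, so the summed ratio says little of the other monocyte genes.

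**Figure D4:**
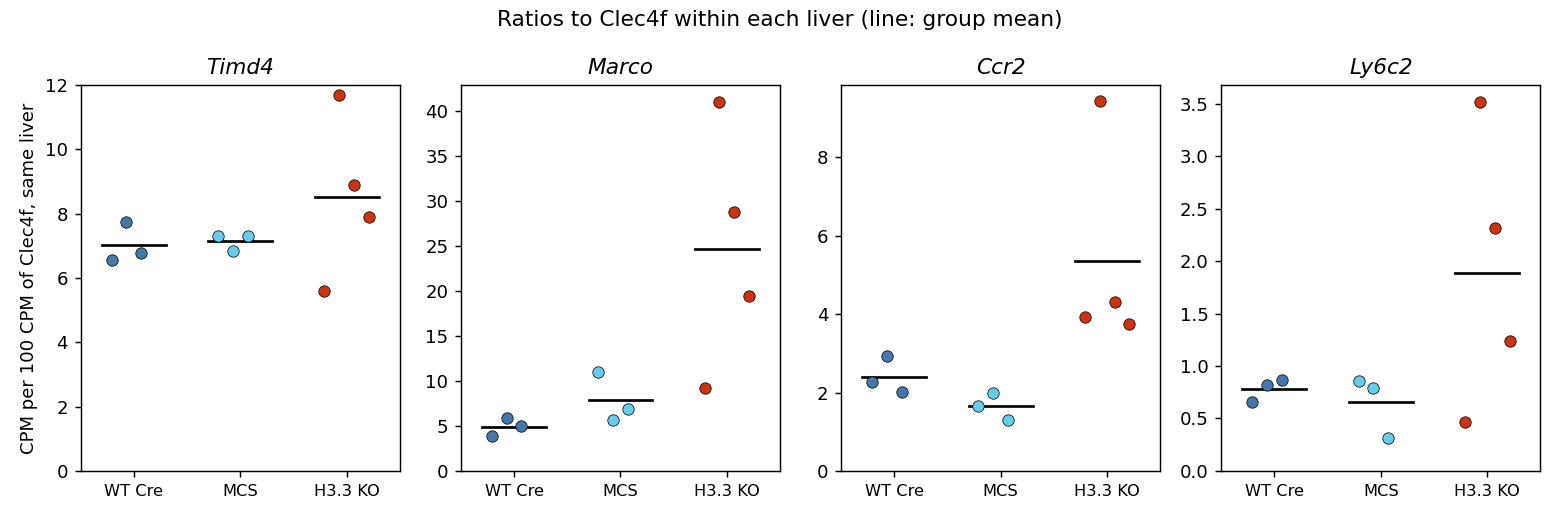
CPM of Timd4, Marco, Ccr2 and Ly6c2 per 100 CPM of Clec4f in the same liver (y axis, from 0) for the WT Cre, MCS and H3.3 KO livers (x axis, points), with a line at each group mean. Ccr2 lies above every control in all 4 KO livers, from 3.76 to 9.44, and Timd4 falls on both sides of the control range of 6.57 to 7.75. For Marco and Ly6c2, KO liver 1 lies within the control range.

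Lipid-associated macrophages, which gather around dying or fat-laden hepatocytes, have genes of their own. Of 15 such genes 12 rose and 1 fell, against 19.7% and 3726 of 22449 over all genes tested. The median log2 fold change was 1.65, or 1.17 on log2(FPKM + 1), below the resident median on that scale. The elastase Mmp12 (5.32 ± 0.52), Gpnmb (4.52 ± 0.49) and Itgax (3.11 ± 0.36) were the highest, beside 3.23 ± 0.48 for Marco. Trem2, the lipid receptor of these cells, rose by log2 2.66 ± 0.32, from 0.396 to 2.48 CPM. The lowest were Cd36 (-0.61 ± 0.42, adjusted p = 0.296) and Fabp5 (-1.99 ± 0.59, edgeR adjusted p = 0.0279), both also expressed by other cells of the liver. Fabp5 lost its call without KO liver 2 (0.075), KO liver 3 (0.0725) or KO liver 4 (0.0598). In the ratio to Csf1r 5 genes of this list were higher and 4 lower, against 1.57% and 84.2% of all genes. Mmp12 (3.69 ± 0.43), Gpnmb (2.46 ± 0.44) and Itgax (1.25 ± 0.37) were higher there, as Marco was.

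**Figure D5:**
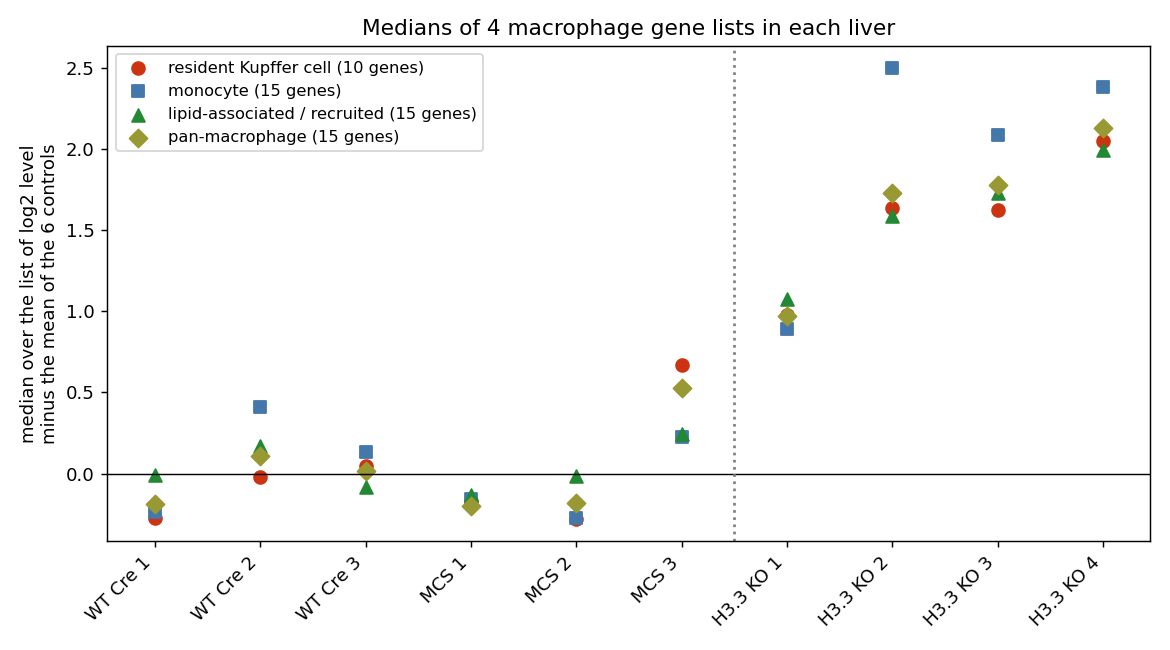
Median over each of 4 gene lists (symbols) of the log2 level minus the mean of the 6 controls (y axis), in each liver (x axis). The resident median runs from -0.28 to 0.67 in controls and is 0.98, 1.64, 1.62 and 2.05 in KO livers 1 to 4, and the monocyte median is 0.89, 2.498, 2.09 and 2.38.

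Liver by liver, the resident median was 0.98 in KO liver 1, 1.64 in KO liver 2, 1.62 in KO liver 3 and 2.05 in KO liver 4, relative to the mean of the controls on the log2 scale. The pan-macrophage median was 0.97, 1.73, 1.78 and 2.13 in the same livers. The monocyte median exceeded the resident median by 0.86, 0.46 and 0.33 in KO livers 2 to 4 and was 0.08 below it in KO liver 1. In controls this difference ran from -0.44 in MCS liver 3 to 0.43 in WT Cre liver 2, so only KO livers 2 and 3 lay above it. MCS liver 3, at 0.67 for the resident genes, was at 0.22 for the monocyte genes.

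C1q acts through the proteases C1r and C1s, whose genes did not pass the test. C1ra was at 226 ± 42.1 CPM in controls and 219 ± 19.9 in KO livers (log2 -0.05 ± 0.14), and C1s1 at 473 ± 53.7 and 462 ± 70.1 (log2 -0.03 ± 0.13). Both are made largely by hepatocytes. Of 12 genes of the classical pathway, its inhibitor and its receptors, 7 rose and 1 fell. Over all genes tested 19.7% rose and 3726 of 22449 fell. The highest were the receptor genes Itgam (2.63), Itgb2 (2.35 ± 0.26) and C5ar1 (2.33 ± 0.52), and the lowest the protease-like C1rl (-0.20 ± 0.15) and the regulator Cr1l, which fell by 0.87 ± 0.10. C1rl was lower past the threshold without KO liver 1 (adjusted p = 0.0389 by edgeR).

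Timd4 and Marco were the members placed on a list of 18 receptors and bridging proteins for dying cells and particles. Vsig4 and the C1q genes were not put on it. Of the list 17 genes were tested, 9 rose and 0 fell, with a median of 0.62. Over all genes tested 19.7% rose and 3726 of 22449 fell. The highest were Marco, Axl (1.72 ± 0.20) and Timd4, and the lowest Lrp1 (-0.12 ± 0.12) and Cd36.

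Among 15 genes for the signals of the niche, 14 were tested and 8 rose, against 19.7% of all genes tested. Csf1 rose from 10.3 ± 2.54 to 31.3 ± 9.97 CPM (log2 1.61 ± 0.23, edgeR adjusted p = 0.000285), about as far as its receptor and as the resident median. Il34, the second ligand of that receptor, did not pass (0.75 ± 0.31, adjusted p = 0.0731), but passed without MCS liver 3 (0.00859) or without KO liver 1 (0.0285). The adhesion gene Icam1 (2.40 ± 0.32) and the chemokine genes Ccl2 (2.40 ± 0.66) and Ccl5 (2.28 ± 0.45) were highest. Ccl2 did not pass against the WT Cre controls alone (edgeR adjusted p = 0.0575) or the MCS controls alone (0.0830). KO liver 1 was inside the control range for Ccl2 (3.13 CPM against 0.204 to 3.69) and for Ccl5 (1.56 against 0.559 to 1.88). Bmp10 (0.06 ± 0.27) and the Notch ligand Jag1 (-0.08 ± 0.14) were lowest.

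Markers of other cells are set beside all genes tested, of which 19.7% rose and 3726 of 22449 fell. Hepatocyte markers fell in 7 of 10 and rose in 1, with a median log2 fold change of -0.65 and a summed level of 113982 to 157126 CPM in controls and 91342 to 105926 in KO livers. Sinusoidal endothelial markers rose in 2 of 10, with a median of 0.32 and a summed level of 311 to 396 against 331 to 568 CPM. Stellate cell markers rose in 9 of 10 (median 1.25, 216 to 277 against 493 to 789 CPM), T and NK cell markers in 9 of 10 (1.77, 3.42 to 5.89 against 6.12 to 28.8 CPM) and dendritic cell markers in 7 of 10 (1.33, 32.9 to 54.8 against 80.5 to 223 CPM). Neutrophil markers rose in 4 of 8 tested (1.48), B cell markers in 2 of 8 (0.87) and cholangiocyte markers in 2 of 8 (0.49). For sinusoidal endothelial, B cell and cholangiocyte markers the share that rose was near that of all genes. All 5 proliferation genes rose (median 1.96, 6.19 to 11.9 against 17.9 to 35.8 CPM). Which cells divided is not given by these data, and the part of these other cells in the change of the resident genes was not tested.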

How the data were processed

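Poly(A) RNA-seq of 10 livers was used. The deposited gene count table holds whole-number counts per gene, with no normalization by the authors. The deposited FPKM table holds FPKM values, scaled by length and depth by the authors. The study's methods give trimming with Trim Galore, alignment to mm10 with STAR and counting with HOMER, while the submitters' processing notes name STAR, HTSeq and Cufflinks, so the counter is uncertain, and whether counting used strand is not given in the sources used here. The control columns were matched to samples by the library number alone, and comparisons with all 6 controls do not depend on it.

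The members and all gene lists were chosen with earlier results of these data known. Counts were tested with edgeR 4.0.16 (TMM scaling, at least 10 counts summed over livers, robust quasi-likelihood F test, two-sided, Benjamini-Hochberg over 22449 genes), as 4 KO against 6 controls and in a fit of 3 groups. CPM are TMM-scaled. Ratios to Csf1r were tested with limma 3.58.1 (trend) on log2 CPM with a prior count of 2. The edgeR, DESeq2 and ratio fits were first run on simulated counts with known changes. A minimum recovery was required of the edgeR and DESeq2 fits and not of the ratio fit. DESeq2 1.42.0, other scalings and filters, limma on log2(FPKM + 1) and log2(FPKM + 0.1), a replicate block and leaving out each liver were alternatives. Blank cells among the FPKM values, 268042 of them, were read as 0. Replicates are separate mice by the labels' numbering, and no pair of libraries of a group agreed within sampling noise (chi-square over its degrees of freedom, 10.3 or more).

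Named genes were all 10 members, then from 7 related lists the 3 with the highest and 2 with the lowest log2 fold change at a mean of at least 1 CPM, and Csf1r, Cd68, Ccr2, Ly6c2, Trem2, Gpnmb, Spic, Nr1h3, Id3, C1ra, C1s1, Csf1, Il34 and Mertk whatever their values. F13a1 and Lyz2 were named after their values were seen, and some genes that the rule names are not reported here. Figures were drawn with matplotlib 3.10.9.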

Additional observations from a re-analysis of the deposited data

Results flagged for a closer look

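Each of 51 named genes was checked for a liver far from the rest of its group, in the 6 controls and in the 4 KO livers, by Dixon's test. Of 102 such groups 15 were flagged, and chance flags about 1 in 20. The genes are not independent, since the same liver accounts for most flags.

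In MCS liver 3 the flagged resident genes were Clec4f at 107 CPM (the other controls were between 56.2 and 73.2), Vsig4 at 30.8 (15.8 to 21.2), Timd4 at 7.82 (3.75 to 4.96), Cd5l at 86.6 (44.9 to 56.1), C1qb at 51.6 (26.3 to 35.0), C1qc at 48.8 (27.2 to 31.8) and Adgre1 at 16.8 (6.75 to 9.57). Marco, Folr2 and C1qa were highest in the same liver without being flagged. Other macrophage and niche genes flagged in MCS liver 3 were Csf1r at 50.2 CPM (29.2 to 35.7), Ctss at 42.6 (23.3 to 30.3), Laptm5 at 20.0 (13.3 to 15.3), Axl at 25.3 (16.2 to 19.6), C5ar1 at 4.19 (0.62504 to 1.35) and Il34 at 4.25 (1.59 to 2.13). In the KO group the only flag was Marco in KO liver 1, at 10.2 CPM against 49.4 to 54.0 in the other 3. Nr1h3 was low in WT Cre liver 1, at 81.6 CPM (94.4 to 102).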

How the results depend on the processing

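All 10 members stayed higher in KO livers than in the pooled controls and than in the WT Cre controls under every alternative run, with log2 fold changes of 1.02 to 3.75 and 1.09 to 4.00. Against the MCS controls 184 of 190 values kept their call, and 6 did not: besides those in the report, Clec4f without a filter on counts (log2 1.22, adjusted p = 0.0562). Scaling by library size alone moved the median of all genes up by 0.18, and the resident median to 1.76 from 1.56. On log2(FPKM + 1) the monocyte median was 1.10 and the lipid-associated median 1.17, below the resident median of 1.62, since that scale understates the change of low genes. Leaving out 1 liver gave resident medians of 1.38 to 1.75. Without KO liver 1 and MCS liver 3 together, 2 members differed in ratio to Csf1r, and the resident median was 1.90. By CPM per kilobase the control levels were 2.26 for Timd4, 27.5 for Cd5l, 1.68 for Folr2 and 16.7 for C1qc, and the KO levels 5.11 for Folr2 and 49.2 for C1qc.

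Between livers with the same replicate number in different groups, deviations correlated weakly, at -0.04 to 0.11, and over 0.1 in 1 of 9 pairs. In 13 of 18 cases, however, a liver correlated best with its own number in another group. Whether the replicate numbers pair the livers was not tested. The replicate block, in which KO liver 4 has no partner and so no weight, kept 10 of 10 members and gave a resident median of 1.38, with 3543 genes higher in place of 4429 and 2768 lower in place of 3726. Fabp5 lost its call under the block (adjusted p = 0.124), on both FPKM scales and without a filter (0.0543).

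Genes near 0 that passed no test changed sign. With library size alone Nr1h3 was 0.12, Hp 0.19, Lrp1 0.060, Jag1 0.094, C1ra 0.14, C1s1 0.14 and Hira 0.036. On log2(FPKM + 1) and log2(FPKM + 0.1) Nr1h3 was 0.11 and 0.12, Hp 0.20 on both, Jag1 0.071 and 0.16, C1ra 0.14 on both, C1s1 0.17 on both and Hira 0.076 and 0.091. Hp was 0.00507 with DESeq2 size factors, 0.00505 with DESeq2 and 0.0116 with filterByExpr. Under the block Bmp10 was -0.035 and C1s1 0.041. Leaving out 1 liver gave -0.16 to 0.18 for Hp, -0.082 to 0.31 for Bmp10, -0.10 to 0.011 for C1ra, -0.12 to 0.047 for C1s1, a lowest value of -0.22 for the ratio of Timd4 to Csf1r, -0.13 to 0.49 for Folr2 in WT Cre against MCS and -0.15 to 0.031 for the ratio of Folr2 to Csf1r. Without KO liver 1 and MCS liver 3 Hp was 0.35 and the ratio of Timd4 0.0075. In ratio to Cd68 Cd5l was -0.095 and Adgre1 -0.033, and in ratio to Adgre1 Cd5l was -0.062. The cause of these changes was not tested. Il34 passed with library size alone (adjusted p = 0.0213). Counts limit Ly6c2, Itgam, F13a1, Trem2 and Gpnmb, which are under 1 CPM in every control.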
